A study of Rattus norvegicus with 9 samples.

Results

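Sodium valproate (VPA) was compared with control in RN46A cells, a rat cell line of raphe origin, immortalised with a temperature-sensitive T antigen and used as a model of serotonergic neurons, with the libraries taken as 3 pairs. The comparison uses 6 of the 9 libraries of the series, which also holds 3 lithium libraries: control 1, 2 and 3 and VPA 1, 2 and 3 by their titles, numbered 2, 3 and 4 in the names of the count columns. Cells of every group were maintained at 33 °C in 5% fetal bovine serum and differentiated for 72 h at 39 °C in 1% serum, on plates coated with collagen and fibronectin, so both matrix proteins were supplied from outside in every group. The VPA cells are labelled with VPA at 0.5 mM for 72 h and the control cells with the same 72 h and no concentration. The treatment protocol names lithium and VPA in one phrase, and it was read as 1 drug per group. All 32662 genes of the count table were considered, and 12504 had enough counts to be tested. Each control library was set against the VPA library of the same number, and the replicate number entered the model as a block.

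VPA is a mood stabiliser and anticonvulsant. It inhibits histone deacetylases, enzymes that remove acetyl groups from histones and so favour closed chromatin, and inhibitors of this class alter the transcription of many genes in both directions. A paired design sets each treated library against the control of the same number, which removes differences in starting level that both libraries of a pair share, and it leaves visible how far a change depends on one of the pairs.

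The 6 libraries held 9580591 to 12243806 reads assigned to genes, so that 1 count was worth 0.0817 to 0.104 CPM (read counts scaled to a common library size). The labels do not say that libraries of a number came from one culture or that those of a group came from separate ones. The p-values therefore measure only how far these samples differed, a spread that may be technical. Over 10340 genes that averaged at least 5 CPM, control and VPA libraries of the same number deviated from their group means together, with correlations of 0.59, 0.53 and 0.52 for pairs 1, 2 and 3. These correlations are across genes, which are not independent. Symbols were available for 1231 of the tested genes, those that the authors listed in their own tables of comparisons by p-value on these samples. The defining serotonergic genes Tph2 and Slc6a4 were not among them, so the label of the line was not checked with them here.

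VPA 1 stood apart from the other 5 libraries. In 16 genes averaging at least 5 CPM it lay at least 4-fold below every other library, against 0 to 6 genes for each of the others, and in 0 genes did any library lie 4-fold above the rest. This limit was chosen after the values were seen. ENSRNOG00000030478 had 43943, 45156 and 57389 counts in controls 1, 2 and 3, and 14, 54878 and 45858 in VPA 1, 2 and 3. ENSRNOG00000043866 had 102288, 137305 and 95474 counts in the controls and 21417, 140089 and 94048 in the VPA libraries. Neither gene has a symbol in the deposited tables. The 16 genes took 0.188% of the counts of VPA 1 and 1.27 to 2.2% of those of the other libraries. Lithium 1, which is outside the comparison, had 19 counts of the first gene and 19693 of the second, and in 13 of the 16 genes it lay at least 4-fold below every control, whereas lithium 2 and lithium 3 did so in 0. VPA 1 and lithium 1 thus shared this deficit and control 1, the partner of VPA 1, did not. None of the 16 genes was called, and the part of this difference in other results of pair 1 was not tested.

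With the pairs, 1412 genes rose with VPA (11.3% of those tested) and 996 fell (7.97%), by edgeR's quasi-likelihood test at an adjusted p under 0.05. The change was 2-fold or more in 719 of the rises and 245 of the falls. Every one of these called genes moved in the same direction in all 3 pairs, against 54.8% of the tested genes. The calls were made from the same pairs, so this agreement follows largely from the calling and is no separate support. Without the pairs, the same 6 libraries gave 609 rises and 253 falls, and all of these were also called with the pairs. The common biological coefficient of variation was 0.146 in the paired fit and 0.227 in the unpaired one. The paired fit leaves 2 residual degrees of freedom, so its p-values lean on the spread borrowed from other genes. Without pair 1, 920 genes rose and 609 fell; without pair 2, 1088 and 864; and without pair 3, 1835 and 1438.

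The pairs differed at the edges of their range. A change of 2-fold or more was measured for 842 genes upward and 336 downward in pair 1, for 1014 and 396 in pair 2, and for 848 and 641 in pair 3. The median log2 ratio over all tested genes was 0.0141 in pair 1 and closer to 0 in the others. The scaling of the libraries brings this median near 0, so it does not compare the pairs. Across the 10340 genes averaging at least 5 CPM the log2 ratios of pairs 1 and 2 correlated at 0.71, those of pairs 1 and 3 at 0.65 and those of pairs 2 and 3 at 0.56; these are descriptions over genes, and no library is shared between pairs.

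**Figure D1:**
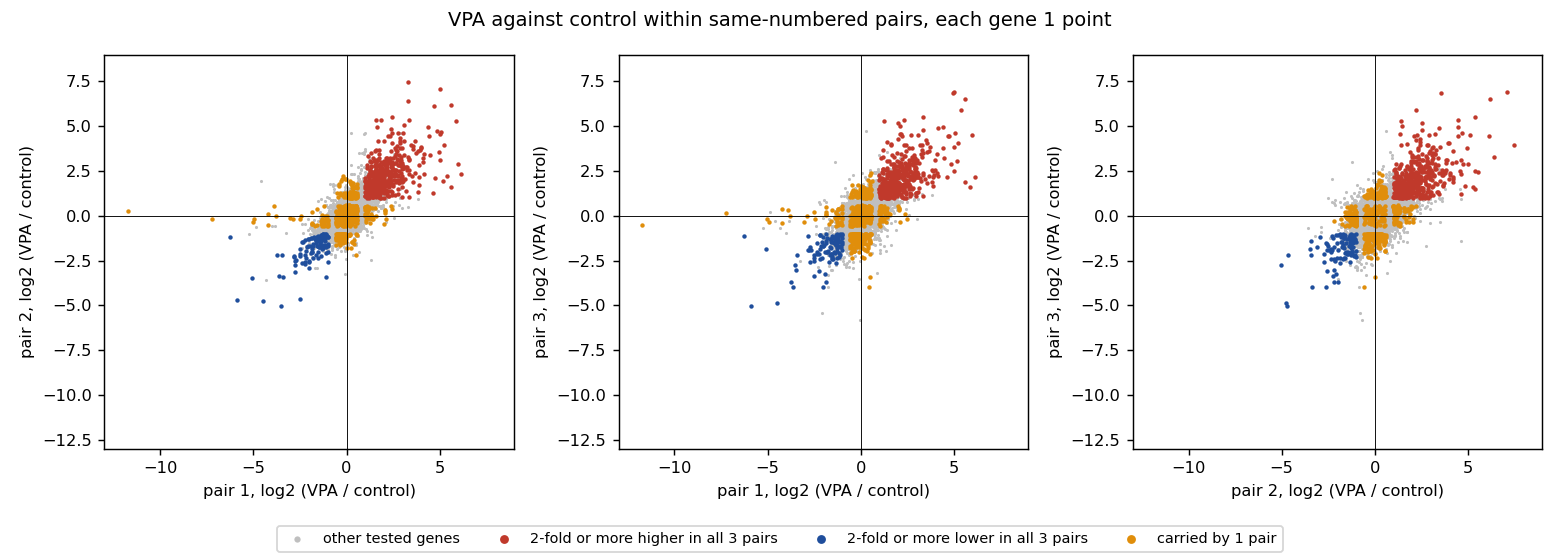
Log2 ratio of VPA over control in one pair against another for the 12504 tested genes, with genes 2-fold or more higher (red, 477) or lower (blue, 105) in all 3 pairs and genes carried by 1 pair (orange) marked. The isolated orange points far to the left in the panels with pair 1 changed in pair 1 and stayed near 0 in the other pairs.

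Consistency was then described by size. Of the rises, 473 were 2-fold or more in each of the 3 pairs, 224 in 2 pairs, 244 in 1 pair and 471 in none. Of the falls, 104 were 2-fold or more in all 3 pairs, 140 in 2, 220 in 1 and 532 in none. Over all tested genes, 477 (3.81%) were 2-fold or more higher in all 3 pairs and 105 (0.84%) lower, and 4 and 1 of these missed the test. The genes higher in all 3 pairs were low in control, with a median control level of 1.20 CPM and a VPA level of 5.03 CPM, against 30.3 CPM in control over all tested genes. In 174 of the 477 at least 1 library held under 5 counts, so that the ratio of a pair rests on few reads. The genes lower in all 3 pairs had a median of 11.7 CPM in control and 3.29 CPM with VPA.

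**Figure D2:**
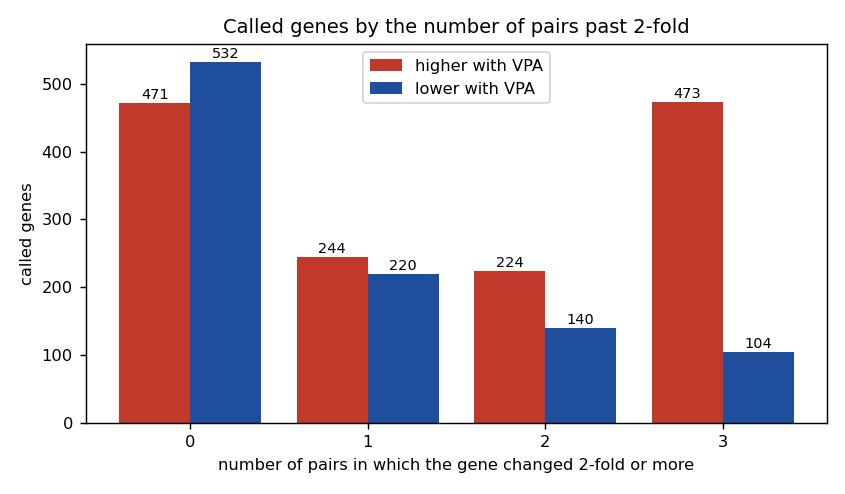
Called genes by the number of pairs in which they changed 2-fold or more in the direction of the call, for rises (red) and falls (blue). Rises divide between none (471) and all 3 pairs (473), whereas falls are fewest at all 3 pairs (104).

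The most consistent rises, ranked by the smallest of their 3 pair ratios among named called genes that averaged at least 1 CPM and held 5 counts or more in each library, were led by Vgf. It encodes a secreted neuropeptide precursor (ENSRNOG00000001416). It was at 1.80, 1.52 and 5.33 CPM in controls 1, 2 and 3 and at 38.9, 48.6 and 74.6 CPM in VPA 1, 2 and 3. Both groups were highest in pair 3, the groups did not overlap, and the log2 change was 4.29 ± 0.23 (SE; adjusted p = 7.22e-05, edgeR's quasi-likelihood test).

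Adgrb2, an adhesion G protein-coupled receptor of the brain, went from 1.98, 2.38 and 4.61 CPM to 31.8, 34.4 and 39.6 CPM in the same order of libraries, with pair ratios of 3.98, 3.83 and 3.09 on the log2 scale. Snap91, an adaptor of clathrin-mediated vesicle recycling at synapses, went from 1.35, 0.650 and 1.35 to 11.98, 12.3 and 10.8 CPM. Its VPA libraries were nearly level, and its ratio of pair 2 was the largest because control 2 was the lowest control. Adam23, a neuronal cell surface protein of the disintegrin family, went from 1.44, 0.975 and 1.35 to 10.9, 8.65 and 14.4 CPM.

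Zcchc12, a zinc finger transcriptional co-regulator, was the most abundant in control of the 12 top rises, at 5.03, 5.63 and 6.05 CPM, and reached 30.7, 42.9 and 46.99 CPM. Cyp24a1, the enzyme that degrades vitamin D hormone, rose by almost the same factor in every pair (2.78, 2.82 and 2.90 on the log2 scale). So did Maob, a mitochondrial enzyme that degrades monoamines, with pair ratios of 2.52, 2.59 and 2.59 and CPM of 1.44, 0.866 and 0.993 in control and 8.46, 5.45 and 6.21 with VPA. The other top rises were Tmem130 (2.99 ± 0.22), Rundc3b (3.26 ± 0.31), the neural adhesion molecule L1cam (2.96 ± 0.27), the neuronal calcium sensor Hpcal4 (2.88 ± 0.22) and the neurotrophin receptor Ngfr (2.70 ± 0.17). All 12 remained called with any pair left out, which follows largely from their choice by the smallest pair ratio.

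Among the falls ranked the same way, Il20rb, a receptor subunit for interleukins of the interleukin-10 family (ENSRNOG00000023214), went from 20.1, 19.1 and 12.1 CPM in controls 1, 2 and 3 to 1.57, 1.82 and 0.717 CPM in the VPA libraries. Pair 3 was the lowest in both groups, and the log2 change was -3.67 ± 0.22 (adjusted p = 7.22e-05, edgeR). Aqp1, a water channel, was at 164, 157 and 179 CPM in control and 28.5, 35.6 and 31.1 CPM with VPA. Its pair ratios were -2.52, -2.14 and -2.52.

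S100a4, a small calcium-binding protein of motile and mesenchymal cells, varied more than 2-fold between controls (1763, 3418 and 1476 CPM) and stood at 385, 660.0 and 415 CPM in the VPA libraries, with pair ratios of -2.20, -2.37 and -1.83. Adam33, a membrane metalloprotease, was at 22.7, 45.3 and 21.7 CPM in control and 3.92, 9.40 and 2.07 CPM with VPA. Pair 2 was the highest in both groups for S100a4 and Adam33. Col3a1, a fibrillar collagen, went from 282, 123 and 126 to 25.2, 26.9 and 15.7 CPM, and Lsp1, an actin-binding protein of leucocytes, from 16.98, 14.4 and 17.3 to 1.25, 3.10 and 1.27 CPM.

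Further consistent falls were the aldo-keto reductase Akr1c3 (-2.29 ± 0.26), the lectin-like receptor gene Clec2g (-2.38 ± 0.19), the secreted Wnt modulator Sfrp4 (-2.28 ± 0.29), Gzmbl3 of the granzyme family (-2.41 ± 0.24), Gfra4, a co-receptor for ligands of the glial-derived neurotrophic family (-2.24 ± 0.23), and Angptl4, an inhibitor of lipoprotein lipase (-2.11 ± 0.28). Akr1c3, Clec2g and Gzmbl3 have near copies in the genome that may split reads with them, which makes their values uncertain. All 12 falls remained called with any pair left out, which again follows largely from how they were chosen.

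**Figure D3:**
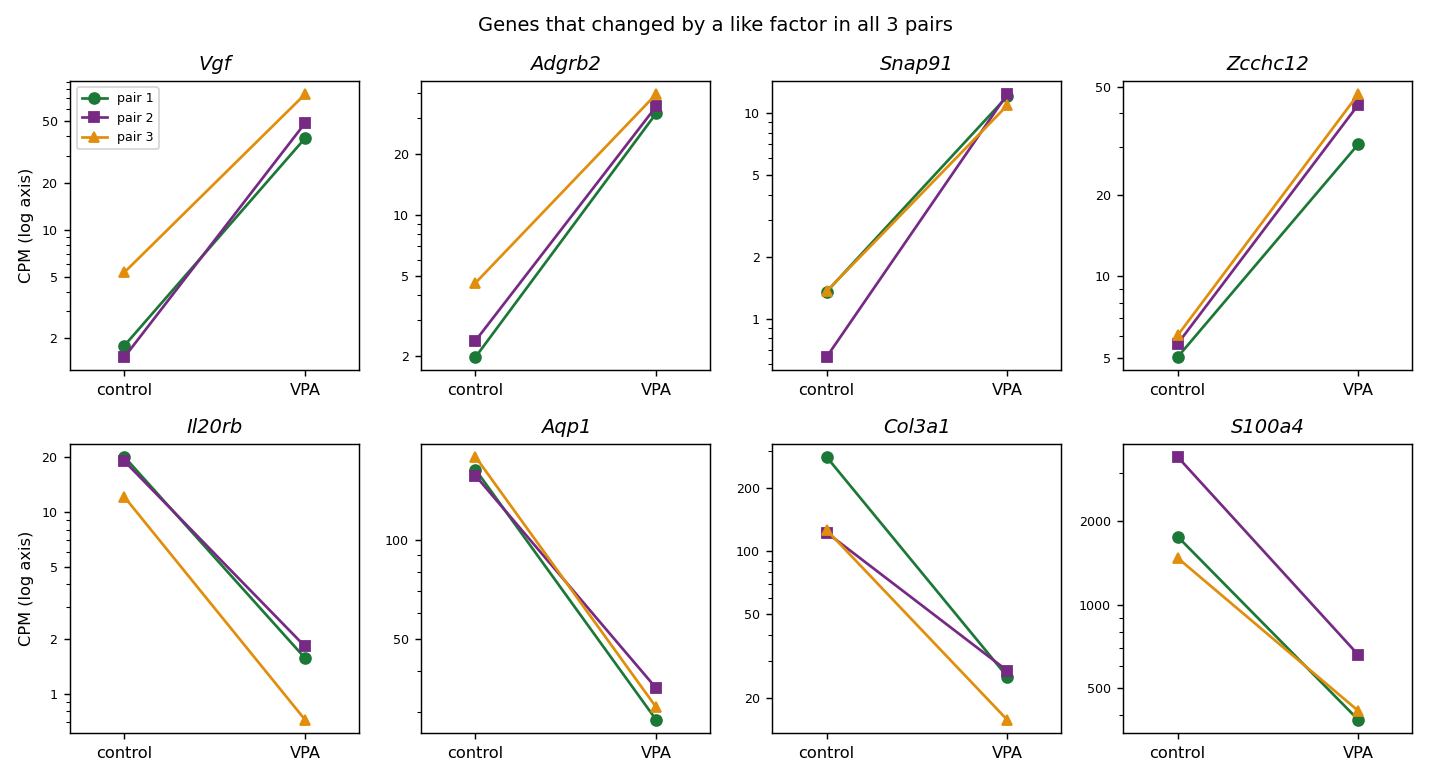
CPM on a log axis in control and VPA for 4 of the most consistent rises (top) and 4 of the falls (bottom), with a line joining the 2 libraries of each pair. Every line rises in the top row and falls in the bottom row, and the groups do not overlap. The order of the pairs is not always kept: for Col3a1 pair 1 is the highest in control and pair 2 with VPA. For S100a4 control 2 and VPA 2 are both the highest of their group.

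Gene lists described the biology of the called genes. Among tested genes with a symbol, 58.2% rose and 35.4% fell (93.7% in all), the groups did not overlap in 93.3%, with a median log2 change of 0.90, 96.9% had the same sign in the 3 pairs, and 32.9% and 7.47% were 2-fold or more higher or lower in all 3 pairs; the counts of lists below stand beside these shares, which are high because the authors chose the named genes on these samples. Neuronal genes rose. Of 36 genes for the neuronal cytoskeleton and identity, 12 had a name and were tested: 10 rose, 1 fell and 1 did not pass, and 9 were 2-fold or more higher in all 3 pairs (list median 2.01). Mapt, the microtubule-binding protein tau, went from 1.71, 2.27 and 1.72 to 9.48, 11.1 and 12.9 CPM, and Nefm, a neurofilament subunit, from 0.629, 0.866 and 1.17 to 6.27, 5.88 and 4.70 CPM. Crmp1, a mediator of semaphorin signalling in growth cones, had pair ratios of 3.94, 3.68 and 2.26. Nsg1, an endosomal protein of neurons named here after its values were seen, fell (-1.41 ± 0.17).

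Of 39 genes of synaptic vesicles and release, 12 were named and tested, of which 11 rose and 0 fell, 9 of them 2-fold or more in every pair (median 2.29). Snap25, a core protein of vesicle fusion, went from 0.719, 0.325 and 0.452 to 5.48, 6.09 and 2.55 CPM and was least raised in pair 3 (2.85, 4.05 and 2.38). Rims1, an active zone scaffold, had pair ratios of 3.22, 2.56 and 3.43. Rab3a, a vesicle GTPase, was the member that did not pass (0.47 ± 0.16; named after its values were seen). Of 40 voltage-gated channel genes all 7 that were named and tested rose, each 2-fold or more in all 3 pairs (median 2.34). Cacna1b of the N-type calcium channel went from 1.53, 0.758 and 1.54 to 10.3, 9.72 and 8.44 CPM, and the sodium channel gene Scn8a changed by 2.34 ± 0.39.

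Of 56 adhesion and axon guidance genes 14 were named and tested, and 12 rose and 2 fell (median 1.74). Nrxn2, a presynaptic adhesion receptor, had pair ratios of 4.49, 3.40 and 3.25, Nfasc, which anchors sodium channels at axon initial segments and nodes, 2.17, 3.06 and 2.92, and the axonal adhesion molecule Cntn1 2.13, 2.32 and 2.91. The falls were the guidance receptor Robo2 (-1.13 ± 0.28) and the ephrin receptor Epha10 (-2.91 ± 0.47), named after their values were seen.

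Receptors and ligands of growth signalling rose in most cases. Of 33 neurotrophic and growth factor genes 9 were named and tested, 8 rose and 1 fell (median 2.29). Ngfr, the low-affinity neurotrophin receptor, went from 4.49, 3.57 and 5.33 to 26.01, 27.2 and 34.2 CPM. Igf2, a fetal growth factor, had 2, 1 and 1 counts in controls 1, 2 and 3 and 141, 104 and 157 in VPA 1, 2 and 3. Igfbp4, a binding protein of these factors named after its values were seen, fell by a log2 change of -1.34 ± 0.12. Of 35 serotonergic and monoamine genes 5 were named and tested, 4 rose and 1 fell. The fall was the homeobox gene Hmx2, named after its values were seen. Hmx3, a homeobox gene of the same family, was raised most in pair 1 (2.22, 1.37 and 1.08). The serotonin receptor Htr5b rose about equally in all pairs (2.61, 2.56 and 3.11). Slc29a4, a monoamine transporter, went from 4.40, 4.01 and 7.77 to 10.3, 10.9 and 12.2 CPM and was called with the pairs alone (adjusted p = 0.00801 with them and 0.0568 without, edgeR).

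Of 47 Wnt pathway genes 8 were named and tested, of which 6 rose and 2 fell (median 1.71). The ligands Wnt6 and Wnt11 went from 2.79, 1.84 and 3.43 to 15.9, 17.7 and 23.02 CPM and from 0.629, 1.41 and 1.26 to 4.62, 6.62 and 5.18 CPM. Lef1, a transcription factor at the end of the pathway, changed by 1.84 ± 0.26. The receptor Fzd1 (-1.20 ± 0.23) and the ligand Wnt10b (-1.30 ± 0.30), both named after their values were seen, fell. Of 38 genes of phosphoinositide and Akt signalling 6 were named and tested, 3 rose and 3 fell. Plcg2, a phospholipase C, had pair ratios of 1.84, 2.61 and 1.55. Inpp5d, a phosphatase of the same lipids, had -1.55, -2.03 and -2.33, and Plce1, another phospholipase C, 0.94, 4.58 and 1.48. The ratio of Plce1 in pair 2 rests on 1 count in control 2, and the gene was not called without the pairs (adjusted p = 0.0866, edgeR). The kinases Akt1 (-0.71 ± 0.13) and Akt2 (-0.64 ± 0.13), named after their values were seen, fell.

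Cell cycle genes were mostly lower. Of 40 such genes 8 were named and tested, 6 fell and 2 rose (median -0.83), and without the pairs 2 fell and 2 rose. Mcm7 of the replicative helicase went from 246, 269 and 295 to 146, 144 and 162 CPM, and E2f2, a transcription factor of the cell cycle, from 37.1, 32.6 and 32.5 to 20.8, 18.6 and 14.7 CPM. Cdkn1c, an inhibitor of cyclin-dependent kinases, rose from 1.44, 2.82 and 2.62 to 10.3, 10.04 and 12.8 CPM. Ccnd2, a D-type cyclin, was the other rise. It had 2, 0 and 0 counts in the controls and 29, 17 and 26 in the VPA libraries. The falls included Cdkn2a and Cdkn2b, which also encode kinase inhibitors and were named after their values were seen. Of 24 genes often altered by histone deacetylase inhibitors 6 were named and tested, 4 rose and 2 fell. Tubb3, a neuronal tubulin, had pair ratios of 2.33, 2.03 and 1.42; control 3 was its highest control (7.91, 10.7 and 18.4 CPM), and the VPA libraries were close (40.03, 43.9 and 49.5 CPM). The falls were the keratin Krt8 (-1.73 ± 0.24) and the deacetylase gene Hdac7 (-0.74 ± 0.17, named after its values were seen).

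Of the marker lists for other cell types, the sums of fibroblast and of neural crest markers did not overlap between groups, and the other 3 measured did. The 10 named and tested of 26 fibroblast and mesenchymal markers summed to 6063 to 7961 CPM in control and 2665 to 4231 CPM with VPA; 6 fell and 2 rose. The 6 of 22 neural crest and Schwann cell markers summed to 13.5 to 19.96 CPM in control and 69.8 to 78.1 CPM with VPA. Erbb3 and Ngfr, which averaged 26.6 and 29.1 CPM with VPA, are also in the neurotrophic list, and L1cam is also in the neuronal identity list. Of the 6 markers, 5 rose and 1 fell. The fall was the Schwann cell marker S100b, 2-fold or more lower in all 3 pairs and named after its values were seen. Erbb3, the neuregulin receptor of that lineage, went from 4.85, 4.12 and 7.40 to 26.6, 27.99 and 25.2 CPM, and Sox10, its transcription factor, had 0, 1 and 2 counts in controls 1, 2 and 3 and 21, 22 and 47 in VPA 1, 2 and 3. The sum of the 6 of 21 epithelial markers was 146 to 257 CPM in control and 178 to 227 CPM with VPA, but each member was called: Esrp1, Perp, Dsp and Ocln rose and the keratins Krt7 and Krt8 fell (median 1.77; Dsp and Krt7 named after their values were seen). The 6 of 17 microglia and leucocyte markers, at 52.4 to 78.8 and 54.1 to 91.3 CPM in sum, were also all called, 3 higher and 3 lower (median -0.06). Of the 2 of 16 astrocyte and oligodendrocyte markers, at 7.26 to 11.1 and 8.44 to 11.1 CPM, 1 fell. Of 12 endothelial markers 0 had a name. Sox10 in control 1 and the fibroblast marker Dcn in VPA 3 were the only named markers of these lists at 0 in a library. In bulk RNA fewer cells of a type and less RNA per cell cannot be told apart, and the part of such cells in the changes above was not tested.

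Cholesterol synthesis was among the lists that gained calls with the pairs. Cells make cholesterol through a chain of enzymes whose genes are switched on together when sterols in the endoplasmic reticulum are low, and Insig1 encodes the sterol sensor that holds this switch back. Of 32 genes 11 were named and tested, and all 11 rose with the pairs, against 6 without them (median 1.08). They remained 11 with any pair left out. The gain stands beside 348 genes with a symbol that were called only with the pairs and 806 called with and without them. Fdft1, which makes squalene, went from 107, 96.4 and 188 to 209.6, 213 and 361 CPM. Pair 3 was the highest in both groups, control 3 came close to VPA 1 and VPA 2 without reaching them, and every pair rose (0.97, 1.14 and 0.94). Its adjusted p was 0.00112 with the pairs and 0.0697 without (edgeR).

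Msmo1, a sterol demethylase, went from 144, 119 and 267 to 380.4, 461 and 670.5 CPM, again highest in pair 3 in each group. Insig1 itself rose by unequal amounts, from 77.6, 74.1 and 110.0 to 198, 285 and 654 CPM, with pair ratios of 1.35, 1.94 and 2.57. Idi1, an isomerase of the isoprenoid units, also rose most in pair 3 (1.24, 1.21 and 2.04). The sterol regulatory element, searched as ATCAC and CCAC with any base between on either strand, was in 0 of the 7 promoters of the list that have a RefSeq entry and in 0.215% of all 27457 promoters, over the 250 bases before the start. With entries for 7 of 11 members, under the share of 80% set for such a check, this search is void for the list as a whole.

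The pairs gained 803 rises and 743 falls and lost none of the calls made without them. Of the 1546 gained genes 1094 had groups that did not overlap. The other 452 had groups that overlapped and were called from the order within pairs. Over all 12504 tested genes the groups did not overlap in 3214 (25.7%). The gained genes were chosen by a test on these values, so a larger share among them follows largely from the calling. Among gained genes within the limits used above, the 8 with the smallest p included Fdft1. Mnda, a nuclear interferon-related antigen of myeloid cells, had the smallest. It was at 74.4, 73.5 and 32.5 CPM in control and 30.5, 32.4 and 12.3 CPM with VPA. Control 3 was almost level with VPA 1 and VPA 2, VPA 3 was the lowest library, and the ratio was alike in every pair (-1.28, -1.18 and -1.39).

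Syn1, a synaptic vesicle phosphoprotein, showed the same with the opposite sign, at 5.66, 3.47 and 13.5 CPM in control and 15.8, 16.3 and 32.3 CPM with VPA. Its adjusted p was 0.00125 with the pairs and 0.066 without (edgeR). Neurl1, a ubiquitin ligase of Notch signalling, went from 4.85, 5.96 and 12.2 to 13.9, 17.1 and 24.8 CPM. Col5a2, a fibrillar collagen, fell from 582, 734 and 367 to 319, 318 and 119.9 CPM, with pair 3 lowest in both groups, and Ptprv, a receptor tyrosine phosphatase, from 114, 173 and 89.04 to 59.8, 80.7 and 30.7 CPM. Spcs3, a subunit of the signal peptidase, rose from 142, 158 and 73.3 to 257, 311 and 193 CPM. In all 8 genes the groups did not meet, and library 3 was the highest of both groups or the lowest of both.

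**Figure D4:**
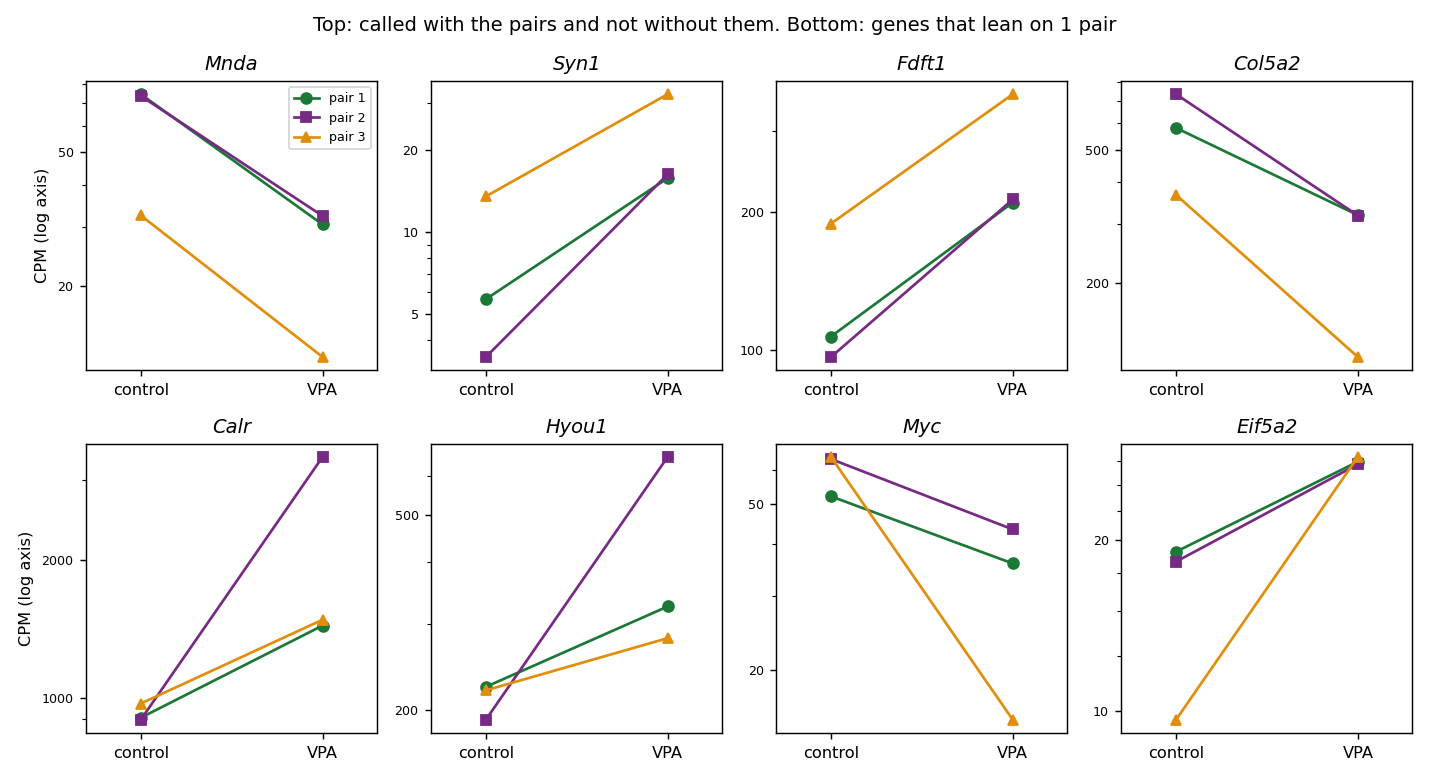
CPM on a log axis in control and VPA, with a line for each pair, for 4 genes called with the pairs and not without (top) and 4 genes that lean on 1 pair (bottom). In the top row control 3 and VPA 3 are each the highest of their own group, or each the lowest. In the bottom row 1 line is steeper because VPA 2 is high (Calr, Hyou1), VPA 3 is low (Myc) or control 3 is low (Eif5a2).

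Interferon response genes fell by similar amounts in the pairs. Of 51 genes of this response and of antigen presentation, 21 were named and tested, 19 fell and 2 rose (12 and 1 without the pairs). The list's median log2 ratio was -1.03, -0.97 and -0.99 in pairs 1, 2 and 3, and all 21 kept their direction in every pair, but 3 were 2-fold or more lower in each of them. Psmb10, a catalytic subunit of the immunoproteasome, went from 24.7, 45.2 and 32.8 to 6.03, 7.80 and 10.4 CPM. Ifitm3, a membrane protein that blocks virus entry, went from 13.1, 11.05 and 10.1 to 3.13, 3.42 and 1.91 CPM, and Ifit1, an antiviral RNA-binding protein, from 2.97, 2.71 and 3.07 to 0.392, 0.427 and 0.796 CPM. Ifit1 and Ifitm3 belong to families of similar copies and can share reads. Gbp5, an interferon-induced GTPase, had pair ratios of -0.99, -1.03 and -1.70 and was called only with the pairs (adjusted p = 0.00551 against 0.0541, edgeR). Psmb9, another immunoproteasome subunit, was carried by pair 2, where control 2 was the highest library (87.5, 138 and 106 CPM in control, 61.4, 68.1 and 75.7 with VPA).

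Many promoters of this list held a sequence motif named for the interferon response. The list was drawn up around that response, so the motif's share describes the list and not an effect of VPA. The core of the interferon-stimulated response element, searched as GAAA, any 2 bases, GAAA on either strand, was in 11 of the 18 promoters of the list with a RefSeq entry (61.1%) and in 3.29% of all 27457 promoters, over the 250 bases before the start. The 5 genes shown here, a proteasome subunit, an ADP-ribosyltransferase, a membrane effector and GTPases, all fell. The sequences are from RefSeq on GRCr8, run 5′ to 3′ along the gene, and have the motif in capitals, which reads as its reverse complement in Gbp2 and Gbp5. A match of letters is a description and not a site of binding.
Psmb10, chr19:50743326-50743395, gene on the minus strand: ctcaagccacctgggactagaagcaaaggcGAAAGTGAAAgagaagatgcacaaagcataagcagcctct
Parp14, chr11:78408028-78408097, gene on the plus strand: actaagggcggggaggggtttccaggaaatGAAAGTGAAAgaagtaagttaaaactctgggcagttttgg
Ifitm3, chr1:205541763-205541832, gene on the minus strand: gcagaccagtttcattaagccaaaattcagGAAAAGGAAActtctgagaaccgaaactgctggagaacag
Gbp2, chr2:234005666-234005726, gene on the plus strand: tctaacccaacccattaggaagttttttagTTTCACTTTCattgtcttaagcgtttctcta
Gbp5, chr2:233910913-233910982, gene on the plus strand: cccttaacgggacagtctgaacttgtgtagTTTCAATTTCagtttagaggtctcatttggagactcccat

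In Psmb10 the match shown ends 63 bases before the start, and a second one 7 bases before it. Parp14, an ADP-ribosyltransferase of the interferon response, and Gbp2, a GTPase, had log2 changes of -0.89 ± 0.14 and -0.95 ± 0.12, and were named after their values were seen. B2m, the light chain of MHC class I, also holds the motif and rose (0.85 ± 0.17), as did Ifitm1 (1.17 ± 0.22), for which the table has no entry; both were named after their values were seen.

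Matrix genes fell, least in pair 2. Of 63 genes of the extracellular matrix and its proteolysis 23 were named and tested, 15 fell, 5 rose and 3 did not pass (11 and 5 without the pairs), and the median log2 ratio was -1.29, -0.68 and -1.32 in pairs 1, 2 and 3. All 23 kept their direction in the 3 pairs, and 7 were 2-fold or more lower in each. Dcn, a collagen-binding proteoglycan, had 236, 114 and 16 counts in controls 1, 2 and 3 and 4, 4 and 0 in VPA 1, 2 and 3. The controls of Dcn spanned a wide range, with control 3 lowest, and VPA 3 had none. Adamts1, a secreted protease, went from 64.3, 35.6 and 59.1 to 12.5, 12.9 and 14.3 CPM, and fibronectin, Fn1, named after its values were seen, from 7312, 3164 and 4762 to 1917, 1349.6 and 1175 CPM. Lox, which cross-links collagen, was carried by pair 1, at 41.9, 20.9 and 18.6 CPM in control and 17.3, 17.4 and 16.1 CPM with VPA. Only control 1 was high, and Lox did not pass (adjusted p = 0.0842, edgeR). Of the fibroblast markers, several of which are also in this list, the smooth muscle calponin Cnn1 rose (2.30 ± 0.33).

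A gene was described as carried by 1 pair where it changed 2-fold or more in that pair and less than 1.5-fold in both others. Pair 1 carried 88 such genes (0.704% of those tested), pair 2 carried 162 (1.3%) and pair 3 carried 269 (2.15%). Of those of pair 3, 88 were higher and 181 lower with VPA; the counts were 46 and 42 for pair 1 and 85 and 77 for pair 2. None of the genes of pair 1 was called, while 11 rises and 14 falls of pair 2 and 11 rises and 19 falls of pair 3 were. At an average of at least 5 CPM, 29, 87 and 181 genes remained. The VPA library lay farther from its group in 23 of the 29 genes of pair 1, the control library in 68 of the 87 of pair 2, and the VPA library in 97 of the 181 of pair 3. Only 1, 7 and 12 of the genes carried by pairs 1, 2 and 3 had a symbol (0.0812%, 0.569% and 0.975% of the named genes tested), because the authors listed genes by their test, so the named ones below are a small part of the class.

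Genes of protein folding in the endoplasmic reticulum leaned on pair 2. This compartment answers unfolded proteins by raising its chaperones and folding enzymes together. Of 29 such genes 6 were named and tested, and all 6 rose with the pairs (3 without them). The median log2 ratio was 0.77, 1.94 and 0.66 in pairs 1, 2 and 3, and the sum of the 6 was 1583 to 1700 CPM in control and 2611, 5863 and 2567 CPM in VPA 1, 2 and 3. All 6 were higher with VPA in every pair. Without pair 2, 3 of the 6 were called. That fit borrows less spread from other genes than those without pair 1 or pair 3, so its calls are not on one footing with theirs. Calr, the calcium-binding chaperone calreticulin (ENSRNOG00000003029), was at 906, 897 and 973 CPM in the controls and 1440.0, 3362 and 1483 CPM in the VPA libraries. The controls were nearly level and VPA 2 was over 2-fold above VPA 1 and VPA 3. Its log2 change was 1.06 ± 0.25 (adjusted p = 0.0191, edgeR) and 0.64 without pair 2.

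Hyou1, a chaperone of the heat shock 70 family, went from 223, 191 and 219.6 to 325, 655 and 280.4 CPM, and Manf, a secreted factor raised by unfolded proteins, from 156, 183 and 166 to 209.8, 551 and 226 CPM. Both were carried by pair 2 and lost their call without it (adjusted p = 0.0618 and 0.0666, edgeR; log2 changes 0.45 and 0.43). Pdia4, a disulfide isomerase, had pair ratios of 0.88, 1.98 and 0.70. Ero1b, which feeds disulfide bonds into new proteins, rose 2-fold or more in all 3 pairs, most in pair 2 (1.26, 2.48 and 1.57). Sdf2l1, a chaperone cofactor, rose in pairs 1 and 2 alike and less in pair 3 (2.99, 2.97 and 1.10), and without pair 2 its log2 change was 1.99, against 2.36 ± 0.36 with all pairs, and was not called (adjusted p = 0.0792, edgeR). Plod2, a lysyl hydroxylase of the same compartment, was carried by pair 2 as well (0.57, 1.58 and 0.02) and did not pass with all pairs (adjusted p = 0.096, edgeR).

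The endoplasmic reticulum stress element, searched as CCAAT and CCACG with any 9 bases between on either strand, was in 2 of the 5 promoters of this list with an entry and in 21 of all 27457 (0.0765%). Both are shown, from RefSeq on GRCr8 along the gene. The capitals mark the match, which reads as the reverse complement and ends 213 bases before the start in Calr and 205 in Ero1b. Hyou1, Pdia4 and Sdf2l1 had no match, and Manf had no entry. The list was drawn up around this stress response, so the motif's share describes the list and not an effect of VPA. A match of letters is a description and not a site of binding.
Calr, chr19:40213117-40213183, gene on the plus strand: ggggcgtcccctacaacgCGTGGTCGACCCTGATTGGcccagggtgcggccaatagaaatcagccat
Ero1b, chr17:92941432-92941506, gene on the plus strand: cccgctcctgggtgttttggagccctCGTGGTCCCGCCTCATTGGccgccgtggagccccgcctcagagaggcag

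Other genes leaned on a pair through different libraries. Amdhd2, an enzyme of amino sugar metabolism, was carried by pair 2 because control 2 was high, at 35.05, 69.5 and 38.8 CPM in control against 23.6, 22.9 and 25.9 CPM with VPA. Myc, a growth-promoting transcription factor, was at 52.03, 63.9 and 64.7 CPM in control and 35.95, 43.4 and 15.2 CPM with VPA. VPA 3 alone was far down; Myc was called with the pairs (log2 change -1.03 ± 0.29, adjusted p = 0.0445) and not without them (0.11, both edgeR). Without pair 3 its log2 change shrank to -0.56 and the call held (adjusted p = 0.00311, edgeR), and without pair 2 the change was -1.28 and the call was lost (adjusted p = 0.199, edgeR). The fit without pair 2 borrows less spread from other genes (8.3 prior degrees of freedom) than those without pair 1 or pair 3, where the prior has no limit, so calls from these fits are not on one footing. Eif5a2, a translation factor, had level VPA libraries (27.4, 27.1 and 27.95 CPM), and control 3 was low (19.1, 18.3 and 9.66 CPM). Acap1, a GTPase-activating protein of endosomes, went both ways (-0.13, 0.54 and -1.44), and Sgca, a muscle membrane protein, was lower mainly in pair 3 (-0.43, -0.33 and -1.31); neither passed (adjusted p = 0.526 and 0.0771, edgeR).

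A second limit, chosen after the values were seen and without a bound on the other pairs, took genes averaging at least 5 CPM whose largest pair ratio was at least 2-fold beyond both others. Pair 1 had 24 such genes, pair 2 had 45 and pair 3 had 97, and in pair 3 the change was downward in 80 of them. The named ones in pair 3 included Slc6a9, a glycine transporter, at 67.6, 59.8 and 102 CPM in control and 43.4, 40.3 and 13.9 CPM with VPA. Control 3 was its highest library and VPA 3 its lowest, and the gene did not pass (adjusted p = 0.224, edgeR). Prx, a scaffold protein of myelinating Schwann cells, had the same order (31.8, 30.5 and 53.5 and 24.05, 17.1 and 8.76 CPM). Slc4a11, a membrane transporter, did as well (68.03, 96.4 and 134 and 54.3, 59.2 and 27.95 CPM), and so did Ssc5d (50.1, 34.9 and 69.8 and 15.1, 17.5 and 9.80 CPM), which was called. In pair 2 Slc8a2, a sodium-calcium exchanger of neurons, was led by a low control 2 (2.16, 0.650 and 6.05 CPM in control, 18.02, 17.1 and 31.1 CPM with VPA), as was the imprinted zinc finger gene Plagl1 (16.8, 6.39 and 13.1 and 42.6, 42.3 and 26.4 CPM).

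The other stress lists held few named genes. Of 33 genes of the integrated stress response and amino acid supply, 3 were named and tested and all fell: Aldh1l2, a mitochondrial folate enzyme, in every pair (-1.05, -1.15 and -1.46), and the serine synthesis enzymes Phgdh (-0.45, -1.25 and -1.22) and Psph (-0.12, -1.09 and -1.68), least in pair 1. Without pair 2 the log2 change of Psph was -0.89, against -0.96 ± 0.26 with all pairs, and was not called (adjusted p = 0.337, edgeR). Of 38 genes of oxidative stress, glutathione and thioredoxin 6 were named and tested. Akr1c3, the glutathione transferase Mgst2 (-1.17 ± 0.13) and the peroxidase Gpx1 (-0.97 ± 0.16) fell. Gstp1, another transferase (1.12 ± 0.16), Txnrd1 (0.72 ± 0.20) and Me1 (0.57 ± 0.12) rose, the latter 2 named after their values were seen; without the pairs 1 rose and 3 fell. Gstp1 and Mgst2 have near copies that can share reads.

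Of 27 genes of the p53 and DNA damage response, 3 were named and tested and 2 rose. Mdm2, the ubiquitin ligase that restrains p53, was raised most in pair 1 (1.10, 0.80 and 0.44) and without that pair its log2 change was 0.60, against 0.78 ± 0.16 with all pairs, and was not called (adjusted p = 0.139, edgeR), whereas the membrane protein Perp rose alike in all (2.59, 2.37 and 2.67). Of 23 heat shock genes 1 had a name and rose, Hspa4l (1.01 ± 0.18, named after its values were seen). Of 23 hypoxia genes 4 were named and tested and 2 rose, Pdk1 (0.82, 1.03 and 0.54) and Pfkfb3 (0.75, 0.92 and 0.42), regulators of pyruvate use and of glycolysis, both least in pair 3. Ldhb, a lactate dehydrogenase in the glycolysis list, rose by 1.38 ± 0.15, evenly over the pairs (1.28, 1.39 and 1.47). Slc2a3, a glucose transporter of that list, was weakest in pair 3 (1.27, 1.76 and 0.42) with a log2 change of 1.19 ± 0.31. Without pair 1 or pair 2 the change was 1.11 or 0.88 and was not called (adjusted p = 0.0579 and 0.146, edgeR). Gldc, the glycine cleavage enzyme in the folate list, rose in every pair (1.36, 1.62 and 1.59). Of 30 immediate early genes 2 were named and tested and both fell, and so did both of the 2 named of 21 histone genes.

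**Figure D5:**
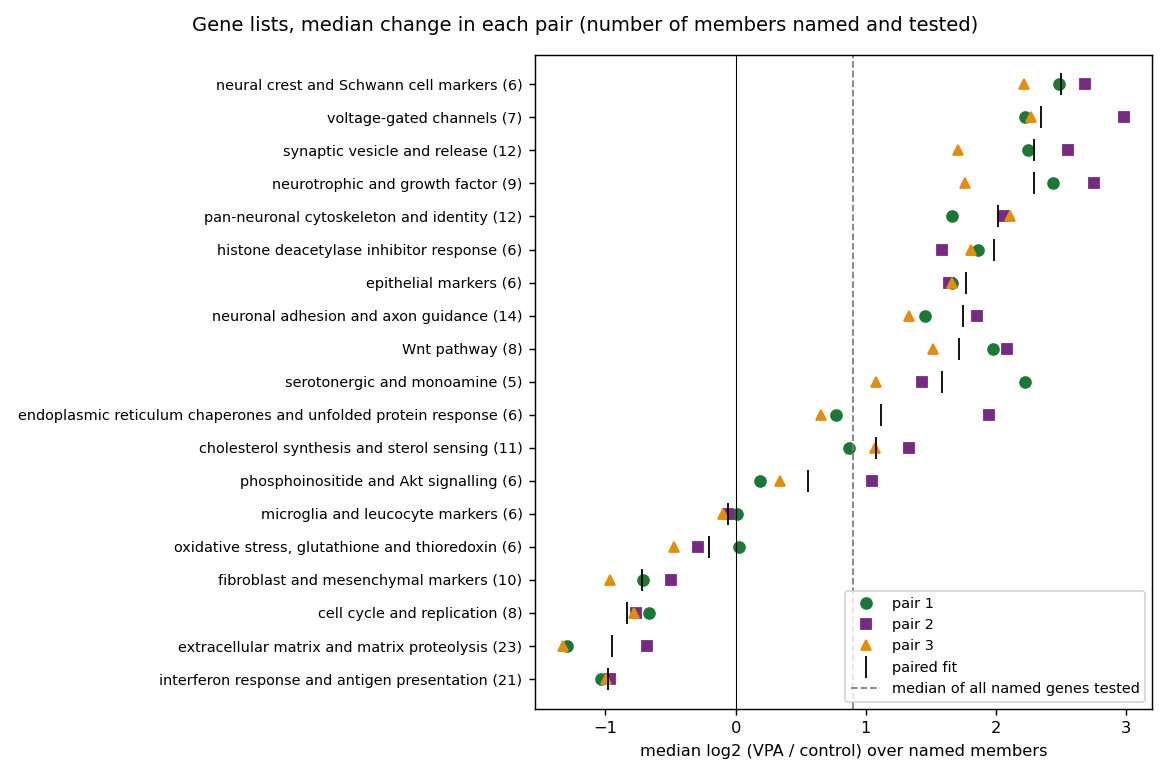
Median log2 ratio of VPA over control in each pair (symbols) and in the paired fit (bar) for lists with 5 or more members named and tested, with the number of members in brackets and the median of all named genes (0.90) as a dashed line. Interferon genes lie close together at -1.03 to -0.97 in the 3 pairs, and endoplasmic reticulum genes spread from 0.66 in pair 3 to 1.94 in pair 2.

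The authors' deposited table for VPA lists 1212 genes, of which 1152 were tested here. With the pairs 1144 of these were called here, all in the direction that the authors' deposited table gives, and without the pairs 837 were. A further 1264 genes called with the pairs are not in the authors' deposited table; it rests on the same libraries, so the shared genes are no independent support.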

How the data were processed

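Total RNA was made into libraries with the NEBNext Ultra RNA kit, per the labels; no strand setting of the counting is stated, so reads of overlapping or antisense genes may not be told apart. The table titled for kallisto repeats the DESeq2 table and the Cufflinks table holds 1 value per group, and neither was used. The authors deposited raw counts per Ensembl gene; HTSeq is named in the table's title, and STAR 2.5.1 in the submitters' processing notes. The genome build and gene annotation are not stated there. The log2 fold changes and adjusted p-values of the authors' DESeq2 table were used as deposited, to compare calls, and symbols came from its column of gene names and from those of 2 other deposited tables (1384 identifiers named, 1311 with a symbol). Counts of the 6 libraries were fitted with edgeR 4.0.16 in R 4.3.3: filterByExpr (minimum count 10), TMM scaling, a robust quasi-likelihood fit with replicate number and group, two-sided tests, and Benjamini-Hochberg adjusted p-values across 12504 genes, called under 0.05. The check of the pairing from the title numbers is given above. Pair ratios are differences of log2 CPM with 0.5 counts added. A standard error is the log2 change over the square root of F. Libraries of a group differed by more than counting noise (chi-square per degree of freedom 37.3 to 73.1). The fit was tested on simulated data. Named genes are the 12 rises and 12 falls with the largest smallest pair ratio, the 4 largest in each pair among genes carried by it (all there were where fewer), up to 4 called members of each list, and the 8 smallest p gained by the pairs; others are marked, and some results are not reported here. Members and lists were chosen with earlier results of these data known. Promoter motifs were also searched for the GC box GGGCGG, the cAMP response element and the RE1 core, but 922 of 1231 named genes matched a RefSeq promoter by symbol, so a check over all called genes was void. Alternatives included DESeq2 1.42.0.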

Additional observations from a re-analysis of the deposited data

How the results depend on the processing

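Without the replicate block 609 genes were higher and 253 lower with VPA, and 19 of the 112 named genes lost their call. Leaving out 1 pair at a time gave 920 to 1835 genes higher and 609 to 1438 lower, 550 to 625 genes 2-fold or more higher in the remaining pairs and 149 to 192 lower. Each of those fits has 1 residual degree of freedom, so its p-values rest mostly on the spread borrowed across genes, less so without pair 2. Acap1, not called, had log2 changes of -0.80 to 0.21 with 1 pair left out, and turned from lower to higher without replicate 3 (0.21, adjusted p = 0.504, edgeR's quasi-likelihood test); the cause was not tested. With the second limit on genes leaning on a pair, added after seeing the data, 24, 45 and 97 genes stood for pairs 1, 2 and 3, since it asks for a higher level and another gap. The other counts, under median-ratio or total-count scaling, DESeq2, other filters, a non-robust fit, 2 counts added and all 9 libraries, stayed within 1.5 times. Of the 108 called named genes 86 kept call and direction in every alternative. Depth limits the low genes: 174 of the 477 consistent rises held under 5 counts in a library.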
